A study of Schizosaccharomyces pombe with 16 samples.

Results

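Transcription of the genes at the ends of chromosome II was examined in 2 industrial isolates of the fission yeast Schizosaccharomyces pombe and in the laboratory strain. The members are the genes of the count table that lie on chromosome II and start below position 70000 or end within 70000 bases of the last annotated gene end, position 4532899 (ASM294v2), coding and non-coding, with 5 genes left out by the rule. They number 61 of 7019 genes, 33 at the left end and 28 at the right end. The rule uses no measured value, but it was set with earlier results of these data known. The 8 groups, with 2 libraries each, were Wilmar-P in YES with 3% glucose (glucose), in YES with 3% glycerol and 0.1% glucose (glucose-deficient), in YES with 3% glycerol (glucose-starved) and in molasses medium, Wilmar-A in the same 3 YES media, and laboratory S. pombe (972h-) in molasses medium. Wilmar-A is a wild isolate, and Wilmar-P was derived from it by repeated passaging through industrial molasses. Both Wilmar isolates carry the mating type h90 and the laboratory strain carries h-. YES cultures spent a first period in glucose medium before the move to the test medium, and molasses cultures were grown in molasses alone. The sample records give 4 hours and 32 °C for all 8 groups. Total RNA was depleted of ribosomal RNA before sequencing.

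The last stretch of a chromosome before the telomere, the subtelomere, is built in S. pombe from blocks of sequence that recur at several chromosome ends, and it varies more between strains than the rest of the genome. Genes there are held at low levels by heterochromatin, which is laid down by the methyltransferase Clr4 and read by the chromodomain proteins Swi6 and Chp2, while the shelterin complex, with Taz1 and Rap1 among its subunits, binds the telomeric repeats. In the laboratory strain the right end also carries a cluster for galactose use, with gal1 (galactokinase), gal7 (galactose-1-phosphate uridylyltransferase) and gal10 (UDP-glucose 4-epimerase and aldose 1-epimerase).

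Libraries held 13246648 to 18164249 counts. The label of 3 libraries, Wilmar-P glucose replicate 1, Wilmar-P glucose-deficient replicate 1 and Wilmar-A glucose-deficient replicate 1, gives them as unstranded. Wilmar-A glucose replicate 1 is labelled stranded, yet its counts went with those 3. SPNCRNA.287, a non-coding RNA of the left end, had 123, 93 and 56 counts in the unstranded libraries and 93 counts in Wilmar-A glucose replicate 1, against 0 to 2 in the other 12. Non-coding genes took 8.44% to 8.76% of the counts in these 4 libraries and 1.20% to 2.43% in the other 12. Where handling this library as unstranded changed a count of calls, the other count is given too. No source says whether the 2 replicates of a group were separate cultures, so p-values measure only the spread between these libraries.

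Much of the sequence at these ends exists in several copies, and a few of the sequences are shown first because they set what the counts can and cannot tell. The share of each member's 50-base stretches that occur elsewhere in the genome was computed on RefSeq ASM294v3, where 58 of the 61 members were found. It was 0% in 26 members and between 60.2% and 100% in the other 32. SPBC1348.06c at the left end and SPBPB2B2.15 at the right end, both coding for proteins with a Vel1p domain, are identical over 612 bases, and SPAC977.05c on chromosome I differs from them at 4 of 612 bases. The first 60 bases of SPBC1348.06c and SPBPB2B2.15, and the aligned stretch of SPAC977.05c, are given 5′ to 3′ along the coding strand. SPAC977.05c is 615 bases long, and its stretch need not begin at its own first base. Capitals mark the 3 positions where the chromosome I copy differs.
SPBC1348.06c (chrII:16533-16592, minus strand): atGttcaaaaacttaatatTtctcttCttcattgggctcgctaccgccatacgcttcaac
SPBPB2B2.15 (chrII:4496373-4496432, plus strand): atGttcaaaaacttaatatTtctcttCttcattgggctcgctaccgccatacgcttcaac
SPAC977.05c (chrI:36320-36379, minus strand): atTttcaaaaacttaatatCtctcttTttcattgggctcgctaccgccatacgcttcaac

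The deposited counts gave such copies the same reads. SPBC1348.06c and SPBPB2B2.15 had equal counts in 15 of 16 libraries and differed by 1 in the other. SPBC1348.15 at the left end and SPBCPT2R1.03 at the right end, identical over 390 bases, had equal counts in all 16 libraries. The transmembrane genes ftm5 (SPBC1348.02, left) and SPBPB2B2.19c (right) never differed by more than 64 counts on totals of 20755 and 20347. The rows of such a pair largely repeat 1 measurement at both ends, and copies on chromosome I share part of the sequence too.

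A further pair shows where a copy can still be told apart. SPBPB8B6.05c, an L-asparaginase gene of the left end (L-asparaginases split asparagine into aspartate and ammonia), shares 73.3% of its 50-base stretches with SPAC977.12 on chromosome I. Aligned without gaps they are identical at 1113 of 1245 bases, and an insertion or deletion would add mismatches to this count. A window of 90 bases, identical in its earlier part, is shown 5′ to 3′ along the coding strand, with capitals at the 7 positions where the copies differ.
SPBPB8B6.05c (chrII:54495-54584, minus strand): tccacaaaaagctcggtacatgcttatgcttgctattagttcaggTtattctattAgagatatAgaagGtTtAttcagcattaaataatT
SPAC977.12 (chrI:57475-57564, plus strand): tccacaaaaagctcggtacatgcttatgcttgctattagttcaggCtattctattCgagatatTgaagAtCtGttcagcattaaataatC

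The members without repeated stretches had hardly any Wilmar reads. Over these 26 genes, the highest count in any of the 14 Wilmar libraries had a median of 1 and ran from 0 to 50. Over the 32 repeated members it had a median of 102.5 and ran from 1 to 7075. All 26 lie in 2 blocks, which take up the left end from SPBC1348.11 inward and the right end as far as gal1 and its antisense RNA. The repeated members lie outside these blocks, except SPBPB8B6.05c and its neighbour fex2 at the left end and SPBPB2B2.07c at the right end, which lie within them.

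**Figure D1:**
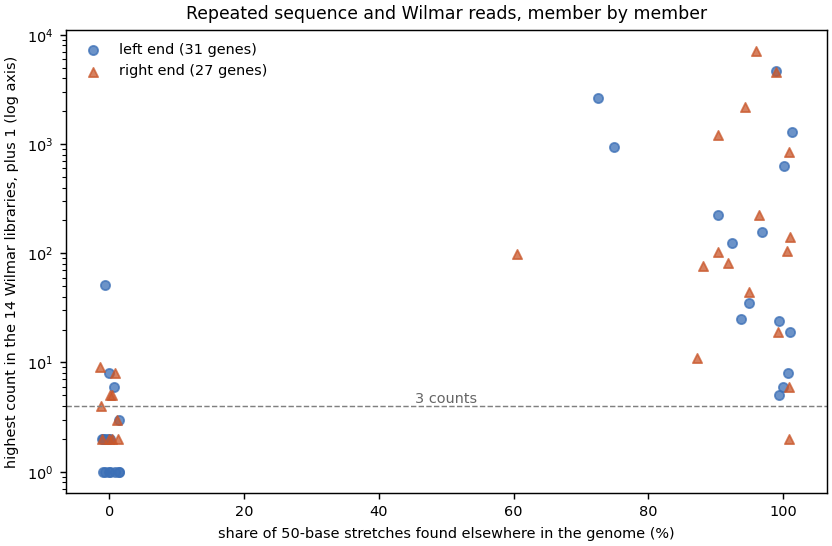
Share of a member's 50-base stretches found elsewhere in the genome (x axis, %, points shifted slightly sideways) against its highest count in the 14 Wilmar libraries plus 1 (log y axis), for 31 left-end and 27 right-end genes. The 26 genes at 0% reach at most 50 counts, and the 32 genes at 60.2% or more reach up to 7075.

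Genes were sorted by detection, with 3 counts as the floor. In the Wilmar libraries 3 counts correspond to 0.138 to 0.272 scaled CPM, the counts relative to library size after TMM scaling. A gene counts as laboratory only when both laboratory libraries lie above the floor and all 14 Wilmar libraries lie at or below it. At the left end 11 of 33 members were laboratory only and at the right end 7 of 28, against 13 of 6953 other genes, or 0.187%. Both strains detected 13 members at each end, 1 member at each end was detected only in Wilmar libraries, 2 at the left end and 1 at the right end were detected nowhere, and 6 at each end were borderline. With a floor of 0 counts in place of 3, 6 members were laboratory only. Gene loss and absence of transcription leave the same counts, so the counts alone do not tell the 2 apart. Reads of all strains were aligned to the laboratory strain's reference genome. A Wilmar gene too different in sequence to align there would also lack counts, which was not tested. The genome sequencing of the isolates was not analysed here. From it the paper reports regions without coverage at the ends of chromosome II in both isolates. It gives gal1, gal7 and gal10 as absent from the Wilmar background. The laboratory strain was measured only in molasses, and a member it does not transcribe in molasses could not be classed as laboratory only.

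**Figure D2:**
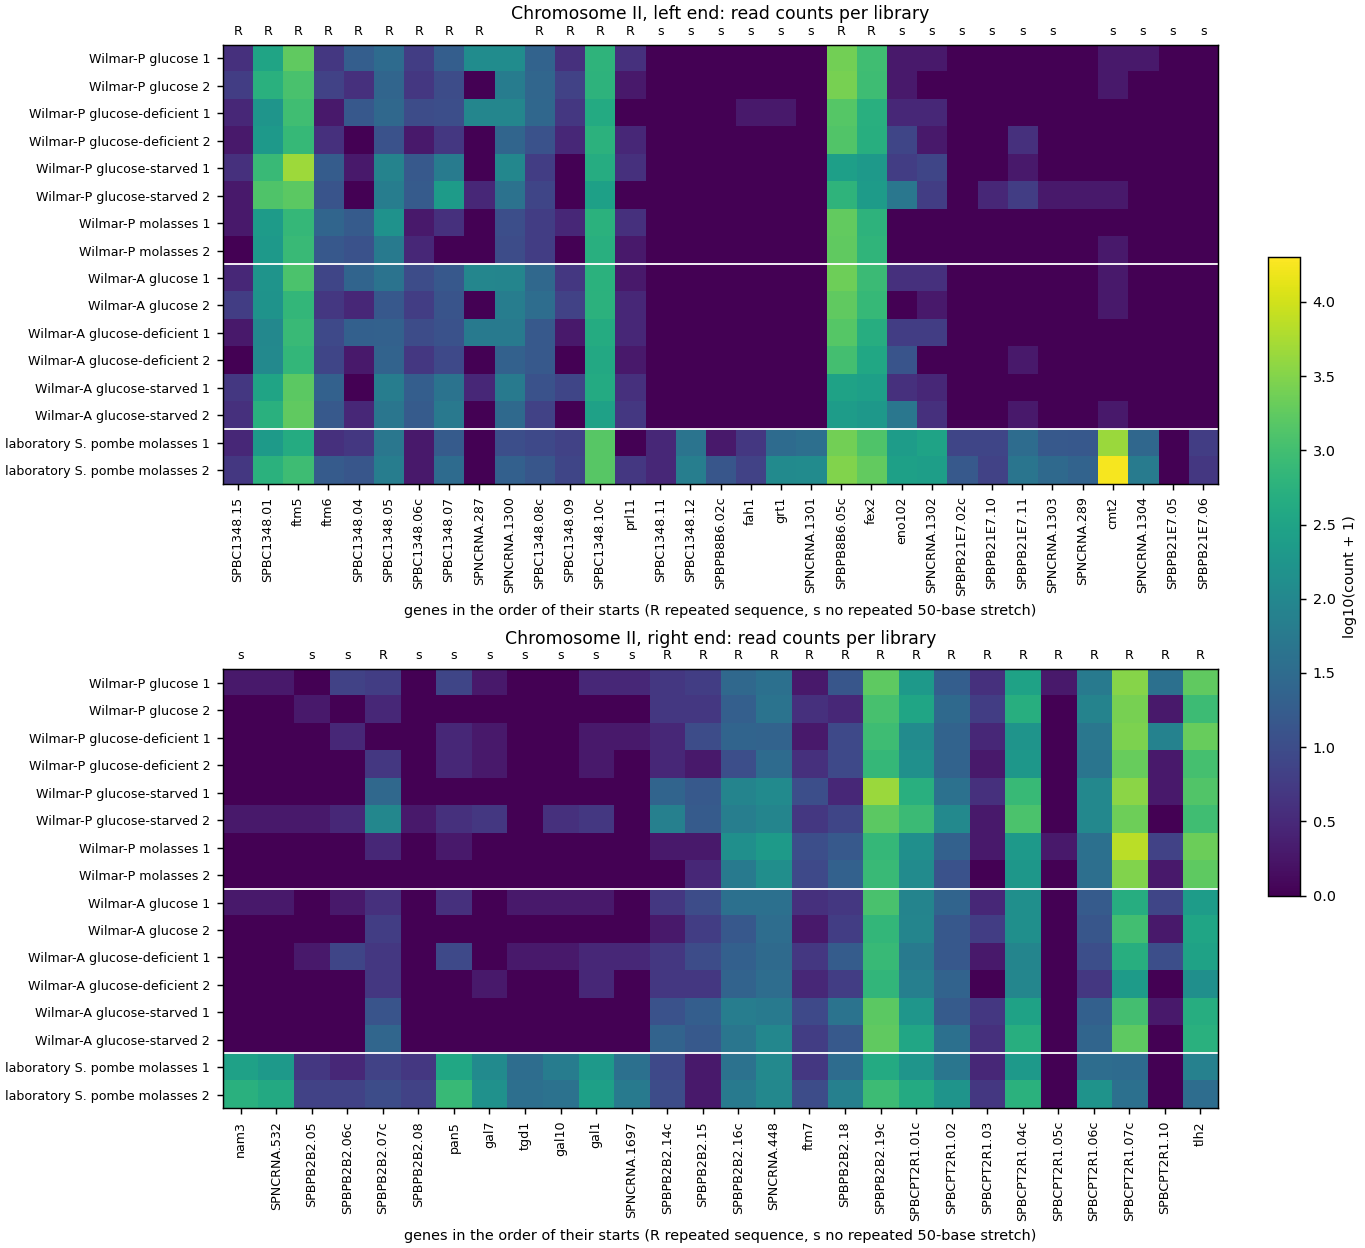
Read counts of all 61 members as log10(count + 1), with genes in the order of their starts (columns, upper panel left end, lower panel right end) and one row per library. White lines separate Wilmar-P, Wilmar-A and laboratory S. pombe, R marks repeated members and s those without repeated stretches. The s columns are dark in the 14 Wilmar rows and light in most laboratory rows.

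At the left end the laboratory-only genes began at SPBC1348.12 (chrII:35112-36589), annotated as a DNA-binding transcription factor, which had 0 counts in all 14 Wilmar libraries and 44 and 69 in the laboratory libraries. Its neighbour SPBC1348.11, a pseudogene of a membrane transporter, had 0 Wilmar counts and 2 counts in each laboratory library. SPBPB8B6.02c, a urea transporter gene, likewise had 0 in all Wilmar libraries and 1 and 13 in laboratory S. pombe. For these 2 transporter genes only 1 library of the series lay above the floor, so their low Wilmar counts do not set the strains apart.

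The transcription factor gene grt1 had 1 count in 1 of 14 Wilmar libraries, against 31 and 112 in laboratory S. pombe. SPNCRNA.1301, a non-coding RNA that overlaps grt1 on the other strand, had 0 Wilmar counts and 152 counts over both laboratory libraries, 36 of them in replicate 1. The acetamidase gene fah1, which also overlaps grt1, had 1 Wilmar count in all and only 4 and 6 laboratory counts. Laboratory replicate 2 held more reads than replicate 1 at grt1 and SPNCRNA.1301, and both lay above all Wilmar libraries. SPBC1348.12 and grt1 did not pass the edgeR test for Wilmar-P against laboratory S. pombe (adjusted p = 0.0570 and 0.0881) and passed it with the Wilmar-A glucose replicate 1 library handled as unstranded (0.00762 and 0.0156).

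The largest contrast was cmt2 (SPBPB21E7.04c, chrII:64487-65620), a catechol O-methyltransferase gene. It had 0 and 1 counts in Wilmar-P on molasses, at most 1 in every other Wilmar library, and 4445 and 17496 in laboratory S. pombe. Its mean level was 0.0394 ± 0.0558 scaled CPM in Wilmar-P on molasses and 682 ± 542 in laboratory S. pombe (SD, n = 2 each). The laboratory over Wilmar-P ratio was 17710, with a 95% counting interval of 3178 to 699500 that rests on 1 Wilmar-P count. The 2 groups did not overlap (edgeR adjusted p = 0.000232). Both laboratory libraries agreed on the presence of the transcript and differed several-fold in its amount. The 300 bases around the annotated start of cmt2 (chrII:65502-65801, minus strand) are shown as the upstream region of the most abundant member without repeats.
cmt2: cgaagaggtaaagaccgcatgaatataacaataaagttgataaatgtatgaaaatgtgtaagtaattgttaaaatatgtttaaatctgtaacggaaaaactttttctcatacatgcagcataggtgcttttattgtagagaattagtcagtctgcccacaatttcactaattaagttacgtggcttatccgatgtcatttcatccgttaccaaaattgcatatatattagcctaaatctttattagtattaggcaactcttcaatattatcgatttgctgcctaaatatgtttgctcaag

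Around cmt2, SPNCRNA.1303 had 1 count over all Wilmar libraries against 15 and 29 in laboratory S. pombe, and SPNCRNA.1304, antisense to the start of cmt2, had 1 count against 26 and 61. SPNCRNA.289 lies within SPNCRNA.1303 on the same strand and counts the same reads in part. SPBPB21E7.02c (phosphoglycerate mutase family) had 0 Wilmar counts and 7 and 15 laboratory counts. The pseudogene SPBPB21E7.06, the innermost of the left end, had 0 against 5 and 4. SPBPB21E7.05 had 0 counts in all 16 libraries and is the member without a single read.

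The enolase gene eno102 (SPBPB21E7.01c) departed from this pattern in glucose-starved medium. Enolase catalyses a late step of glycolysis, and eno102 is the second enolase gene beside the abundant eno101. On molasses it had 0 counts in both Wilmar-P libraries against 234 and 282 in laboratory S. pombe (edgeR adjusted p = 0.03). With the lower laboratory library set against the floor of 3 counts, it was at least 65.96-fold lower in Wilmar-P. In the other Wilmar libraries it had 0 to 12 counts, except 50 in Wilmar-P glucose-starved replicate 2 and 49 in Wilmar-A glucose-starved replicate 2. The first replicates of these 2 groups had 5 and 3 counts, so the high counts were in 1 library of each isolate. Counts of eno101, which shares no 50-base stretch with eno102, were 22776 and 16275 in those 2 replicate 2 libraries and 18027 and 27216 in the replicate 1 libraries. SPNCRNA.1302, on the other strand of eno102, had 0 in both Wilmar-P molasses libraries and 0 to 7 in the other Wilmar libraries. In laboratory S. pombe it had 316 and 258, at least 65.95-fold more than Wilmar-P on molasses by the same bound (edgeR adjusted p = 0.000386).

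**Figure D3:**
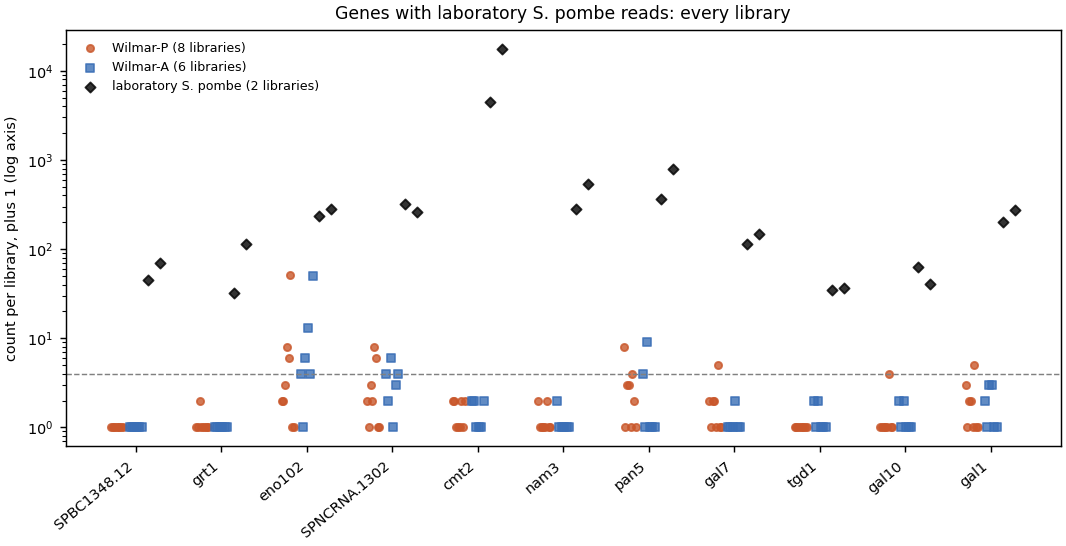
Counts per library plus 1 (log axis) of 11 members that were transcribed in laboratory S. pombe, with Wilmar-P (8 libraries), Wilmar-A (6 libraries) and laboratory S. pombe (2 libraries) from left to right at each gene, and the dashed line at 3 counts. Every laboratory point lies above 30 counts, and the Wilmar points lie at 12 counts or below except for eno102 in 2 glucose-starved libraries.

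Inside the left block, 2 repeated genes had many reads in the Wilmar isolates, the L-asparaginase gene SPBPB8B6.05c (chrII:54322-55582) and fex2 (chrII:55751-57113), a fluoride export channel of the plasma membrane. SPBPB8B6.05c had 146 and 141 scaled CPM in Wilmar-P on molasses against 165 and 189 in laboratory S. pombe. This difference of -0.30 ± 0.31 on the log2 scale (SE) did not pass the test (edgeR adjusted p = 0.683). For fex2 the levels were 47.2 and 50.5 scaled CPM in Wilmar-P and 86.1 and 113.4 in laboratory S. pombe, a log2 fold change of -1.03 ± 0.19 (SE, edgeR adjusted p = 0.0148). Both genes have a copy on chromosome I, SPAC977.12 for SPBPB8B6.05c and fex1 for fex2, with which they share 73.3% and 74.2% of their stretches.

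The counts of these genes were therefore set against their chromosome I copies in each library. The ratio of fex2 to fex1 counts was 0.944 and 0.928 in Wilmar-P on molasses, between 0.860 and 0.955 over the 14 Wilmar libraries, and 1.04 and 1.071 in laboratory S. pombe. The ratio of SPBPB8B6.05c to SPAC977.12 counts was 0.959 and 0.976 in Wilmar-P on molasses, 0.758 to 0.976 over the Wilmar libraries, and 1.01 and 0.995 in laboratory S. pombe. For both genes the 2 laboratory libraries lay above all 14 Wilmar libraries. SPBC1348.10c, a phospholipase gene whose stretches all recur in plb4 on chromosome I, gave a ratio of 0.934 to 0.971 in the Wilmar libraries and 0.941 and 0.964 in laboratory S. pombe, which overlap.

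At the right end the block of members without repeated stretches began at nam3 (SPNCRNA.1696, chrII:4464625-4466286), a long non-coding RNA. It had 0 counts in both Wilmar-P molasses libraries, at most 1 in any other Wilmar library, and 283 and 541 in laboratory S. pombe. With the lower laboratory library set against the floor, the level was at least 79.78-fold lower in Wilmar-P on molasses (edgeR adjusted p = 0.00553). SPNCRNA.532 overlaps nam3 by 812 bases on the same strand and had 0 against 615 counts over both laboratory libraries. The glutamine amidotransferase gene SPBPB2B2.05 and SPBPB2B2.08, of unknown function, had 0 Wilmar-P molasses counts against 4 and 6 each in laboratory S. pombe, barely above the floor. The phosphatase gene SPBPB2B2.06c had few reads in both strains, 0 in Wilmar-P on molasses, 0 to 7 in the other Wilmar libraries, and 2 and 6 in laboratory S. pombe.

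None of the genes of the galactose cluster was detected in Wilmar-P on molasses. The kinase gene gal1 (SPBPB2B2.13, chrII:4488322-4490271) had 0 and 0 counts there, against 201 and 272 in laboratory S. pombe. The transferase gene gal7 (SPBPB2B2.10c, chrII:4482234-4483799) had 0 and 0 against 114 and 146. The epimerase gene gal10 (SPBPB2B2.12c, chrII:4484023-4487569) had 0 and 0 against 62 and 40. With the lower laboratory library set against the floor, these levels were at least 56.66-fold, 32.14-fold and 10.22-fold lower in Wilmar-P. gal1 and gal7 passed the test (edgeR adjusted p = 0.00683 and 0.0206). For gal10 the adjusted p was 0.0522, and 0.0114 with the Wilmar-A glucose replicate 1 library handled as unstranded.

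On the YES media the galactose genes stayed at or next to the floor in both isolates. gal1 had 0 to 4 counts, gal7 0 to 4 and gal10 0 to 3, and the highest count of each was in Wilmar-P glucose-starved replicate 2. In Wilmar-A glucose-starved medium all 3 genes had 0 counts in both libraries. Because 1 library exceeded 3 counts, the rule above put gal1 and gal7 among the borderline members. Laboratory libraries in these media were not analysed here, so the levels are compared with molasses only.

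The genes among and beside the galactose genes behaved alike. tgd1 (SPBPB2B2.11), a nucleotide-sugar dehydratase gene that overlaps gal10 by 3291 bases on the other strand, had 0 counts in Wilmar-P on molasses against 34 and 36 in laboratory S. pombe, at least 9.39-fold lower in Wilmar-P (edgeR adjusted p = 0.0552, and 0.0130 with Wilmar-A glucose replicate 1 as unstranded). SPNCRNA.1697, antisense to gal1, had 0 against 37 and 55 counts (edgeR adjusted p = 0.0669, and 0.00954 with that library as unstranded). pan5 (SPBPB2B2.09c, 2-dehydropantoate 2-reductase, an enzyme of pantothenate synthesis) had 1 and 0 counts against 365 and 792, a laboratory over Wilmar-P ratio of 934 with a 95% counting interval of 167 to 36920 (edgeR adjusted p = 0.007). In other Wilmar libraries pan5 had 0 to 8 counts, with 7 and 8 in 2 of the unstranded libraries, which put it among the borderline members.

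The upstream regions of gal7 and gal1 are shown, from 250 bases before to 50 after the annotated start, since both genes were read in laboratory S. pombe and had 0 counts in Wilmar-P on molasses. Capitals in gal7 (chrII:4483644-4483943, minus strand) mark CCCCAC, a form of the C-rich site bound by Mig1-type glucose repressors in budding yeast, which was searched on both strands. It occurs in 3.23% of 5103 such regions of protein-coding genes. gal1 (chrII:4488048-4488347, plus strand), gal10, pan5 and cmt2 hold no match in these windows, and SPBPB8B6.05c of the left end holds 1. Among coding members, 1 of 10 laboratory-only genes and 2 of 21 detected in both strains had the site. In its binding data on molasses the paper reports the repressor Scr1 at gal1, gal7 and gal10 in laboratory S. pombe but not in Wilmar-P. A part of the site in the levels was not tested.
gal7: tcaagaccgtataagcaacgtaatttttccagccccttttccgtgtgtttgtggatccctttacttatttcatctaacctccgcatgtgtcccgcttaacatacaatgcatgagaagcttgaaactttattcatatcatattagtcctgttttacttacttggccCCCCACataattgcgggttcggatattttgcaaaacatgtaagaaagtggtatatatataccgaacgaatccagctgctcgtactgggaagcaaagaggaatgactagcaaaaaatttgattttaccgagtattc
gal1: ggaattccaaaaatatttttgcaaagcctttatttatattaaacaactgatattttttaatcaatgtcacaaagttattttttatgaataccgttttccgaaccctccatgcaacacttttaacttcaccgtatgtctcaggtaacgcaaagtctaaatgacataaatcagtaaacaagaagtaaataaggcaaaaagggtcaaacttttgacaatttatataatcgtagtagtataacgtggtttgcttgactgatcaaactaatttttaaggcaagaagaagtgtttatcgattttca

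The few Wilmar reads at the 18 laboratory-only members were counted per library. They summed to 0 to 12 counts in a Wilmar library, at most 0.884 CPM without scaling, against 5270 and 19023 counts in laboratory S. pombe. The 12 counts were in Wilmar-P glucose-starved replicate 2 and touched 9 of the 18 genes. The source of these reads was not tested.

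Beyond gal1 the right end consists of repeated genes, of which tlh2 and SPBCPT2R1.07c were higher in Wilmar-P on molasses and 0 were called lower. Among those that did not pass, SPBPB2B2.14c and SPBCPT2R1.02 had log2 fold changes of -3.53 ± 1.15 and -2.40 ± 0.74 (SE, edgeR adjusted p = 0.156 and 0.130). The outermost gene, tlh2 (SPBCPT2R1.08c, chrII:4526885-4532899), codes for a telomere-linked helicase of the RecQ type, and the malic enzyme pseudogene SPBCPT2R1.07c (chrII:4523274-4524970) lies next to it but for 1 pseudogene. On molasses tlh2 had 172 and 133 scaled CPM in Wilmar-P against 5.10 and 2.01 in laboratory S. pombe. Its log2 fold change was 5.43 ± 0.47 (SE, edgeR adjusted p = 0.000174). SPBCPT2R1.07c had 562 and 244 scaled CPM in Wilmar-P against 2.08 and 2.25 in laboratory S. pombe, a log2 fold change of 7.53 ± 0.70 (SE, edgeR adjusted p = 0.000232). The groups lay far apart for both genes, and no other member was higher in Wilmar-P at this threshold. Reads of these genes cannot be placed at chromosome II. tlh2 is identical to tlh1 on chromosome I at 5661 of 5662 aligned bases, and tlh2 counts were 1.10 to 1.19 times those of tlh1 in the Wilmar libraries and 1.25 and 1.18 times in laboratory S. pombe.

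Over both ends, 46 members were tested for Wilmar-P against laboratory S. pombe on molasses, 23 at each end. An edgeR adjusted p below 0.05 and a log2 fold change beyond 1 in either direction made a call. At the left end 0 rose and 6 fell, and at the right end 2 rose and 5 fell, while over all 6662 genes tested 0.645% rose and 2.46% fell. The median log2 fold change was -1.21 over the 46 members and -0.01 over all genes. Some of the 46 passed the count filter through laboratory reads alone. Among those that fell, these were cmt2, SPNCRNA.1302, SPBPB21E7.11, nam3, SPNCRNA.532, pan5, gal1 and gal7, with at most 8 counts in any Wilmar library. Such members could only be called lower, so the number that fell follows in part from the filter. Of the 11 members that fell, 8 had no repeated stretch, 1 had no RefSeq entry and 2 were repeated (fex2 and SPBC1348.10c). SPBC1348.10c had 43.4 and 40.1 scaled CPM in Wilmar-P against 101 and 93.7 in laboratory S. pombe, a log2 fold change of -1.22 ± 0.25 (SE, edgeR adjusted p = 0.0285). SPBPB21E7.11, of unknown function, fell as well, with 0 and 0 counts against 32 and 46 (edgeR adjusted p = 0.0472). When the Wilmar-A glucose replicate 1 library was handled as unstranded, which lowered the common dispersion to 0.0447, against 0.1005 with its label, 21 members fell and the same 2 rose, and the 13 first calls were all among them. Without either Wilmar-P molasses library only 4 calls were left, tlh2 and SPBCPT2R1.07c rising and 2 members falling. Without laboratory replicate 2, 7 calls were left.

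The genes just inside these ends were read in both strains. Of 33 genes in a stretch of the same length just inside the left end, 29 were detected in both strains and 1 was laboratory only. Of 30 genes just inside the right end 27 were detected in both and 0 were laboratory only. On molasses 0 of 30 tested left neighbours rose and 10 fell, and 4 of 29 right neighbours rose and 1 fell, against the 0.645% and 2.46% of all genes above. Over the left neighbours the median log2 fold change was -2.27, lower than over the members, and over the right neighbours it was -0.17. A lower median on molasses is thus not particular to the members.

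Wilmar-P and Wilmar-A were then compared in each YES medium. In glucose 0 of 46 members passed the edgeR test, against 0% of all genes higher and 0.135% lower. In that comparison 8 members had an unadjusted p below 0.05, and DESeq2's Wald test called 6. Without Wilmar-A glucose replicate 2, 6 passed. In glucose-deficient medium 1 member, tlh2, was higher in Wilmar-P and 0 were lower, against 0.045% and 0.15% of all genes. In glucose-starved medium 0 members passed the edgeR test, against 0% of all genes higher and 0.285% lower, with 7 members at an unadjusted p below 0.05 and 0 by DESeq2's test. Averaged over the 3 media, 6 members were higher in Wilmar-P and 0 were lower, against 0.21% and 0.39% of all genes. Leaving out 1 library at a time left 1 to 6 of these calls, with 1 each without replicate 2 of Wilmar-P glucose, Wilmar-P glucose-deficient or Wilmar-A glucose-deficient, or replicate 1 of Wilmar-A glucose-starved. In glucose-deficient medium 0 calls remained without any 1 of its 4 libraries.

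All 6 are repeated genes of the outer ends, and those among them that share sequence are not wholly separate measurements. They were tlh2, SPBCPT2R1.07c, the pseudogene SPBCPT2R1.06c, and the related genes SPBC1348.01 (left), SPBCPT2R1.01c and SPBCPT2R1.04c (right), whose function is unknown. tlh2 had 82.1 and 56.4 scaled CPM in Wilmar-P and 10.9 and 21.5 in Wilmar-A in glucose, 117 and 75.5 against 15.3 and 10.6 in glucose-deficient medium, and 112.9 and 82.5 against 37.8 and 48.5 in glucose-starved medium. The Wilmar-P libraries lay above the Wilmar-A libraries in each medium. The mean log2 fold change was 1.95 ± 0.23 (SE, edgeR adjusted p = 0.00223), with 2.89 ± 0.41 in glucose-deficient medium (edgeR adjusted p = 0.0175). SPBCPT2R1.07c had 151 and 167 scaled CPM in Wilmar-P and 21.8 and 63.7 in Wilmar-A in glucose, 169 and 144 against 25.1 and 17.8 in glucose-deficient medium, and 297 and 189 against 83.4 and 156 in glucose-starved medium. Its mean log2 fold change was 1.8996 ± 0.31 (SE, edgeR adjusted p = 0.0178). SPBCPT2R1.06c, at far lower levels, averaged 2.49 ± 0.38 on the log2 scale (SE, edgeR adjusted p = 0.0110).

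**Figure D4:**
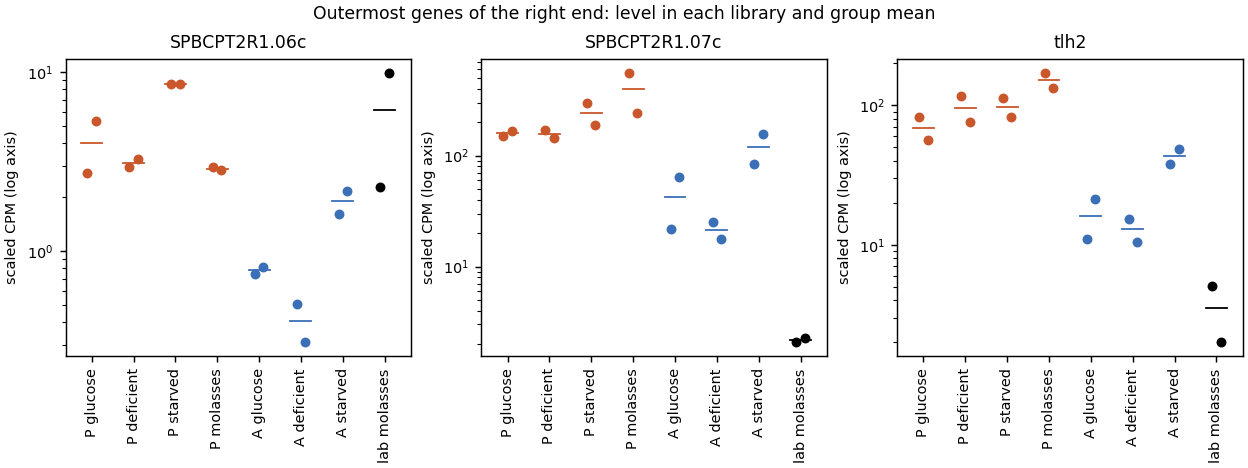
Scaled CPM (log axes that differ between panels) of SPBCPT2R1.06c, SPBCPT2R1.07c and tlh2 in each library (points) with group means (lines, n = 2), for Wilmar-P, Wilmar-A and laboratory S. pombe from left to right. In every YES medium the Wilmar-P points lie above the Wilmar-A points, and the laboratory points are lowest for SPBCPT2R1.07c and tlh2 and reach the highest value for SPBCPT2R1.06c.

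SPBC1348.01 shares much of its sequence with SPBCPT2R1.01c and SPBCPT2R1.04c, and their mean log2 fold changes between the isolates were 1.33 ± 0.24, 1.46 ± 0.27 and 1.38 ± 0.26 (SE). Their edgeR adjusted p-values were 0.0359, 0.0418 and 0.0407. The counts of SPBC1348.01 were 3.23 to 5.91 times those of the related SPAC212.01c on chromosome I in the Wilmar libraries and 1.58 and 1.60 times in laboratory S. pombe. For SPBCPT2R1.04c this ratio was 2.87 to 5.56 in the Wilmar libraries and 1.47 and 1.62 in laboratory S. pombe. For both genes all 14 Wilmar ratios lay above both laboratory ratios.

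Part of the repeated members changed in glucose-starved medium. Wilmar-P glucose-starved medium was compared with glucose, and 6 of 23 tested left members rose and 2 fell, while 8 of 23 right members rose and 0 fell, against 15.8% of all genes rising and 12.1% falling. In Wilmar-A 7 left members rose and 2 fell and 12 right members rose and 0 fell, against 15.3% and 21.1% of all genes. Over the 46 members the log2 fold change had a median of 1.65 in Wilmar-P and of 0.49 in Wilmar-A, and over all genes it was -0.00013 and -0.205. The 46 include 9 left and 7 right members without repeated stretches, most of which had hardly any reads in the groups compared. The medians therefore rest in part on very few reads and do not describe a shift of the transcribed members. Of the members that rose, 13 of 14 in Wilmar-P and 18 of 19 in Wilmar-A were repeated genes. Copies with nearly the same counts, such as ftm5 and SPBPB2B2.19c, enter these tallies more than once, so the calls are not separate measurements. Without Wilmar-P glucose replicate 1 or replicate 2 the Wilmar-P calls numbered 10 and 5, against 16 with all libraries, and 18 with the Wilmar-A glucose replicate 1 library handled as unstranded. In Wilmar-A they numbered 12 without glucose replicate 1, 13 without glucose-starved replicate 1 and 6 without glucose-starved replicate 2, against 21, and 18 with glucose replicate 1 handled as unstranded. The 3 calls lost in that last case were those of eno102, SPBPB2B2.07c and ftm7 (edgeR adjusted p = 0.0627, 0.0648 and 0.106).

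The transmembrane genes ftm5 and SPBPB2B2.19c, whose counts were nearly equal, were the most abundant members that rose. ftm5 had 390 and 139 scaled CPM in Wilmar-P starved of glucose against 83.1 and 74.1 in glucose, and 135 and 163 in starved Wilmar-A against 55.5 and 44.3 in glucose. The log2 fold changes were 1.73 ± 0.47 (edgeR adjusted p = 0.0154) and 1.57 ± 0.43 (adjusted p = 0.0129, SE). SPBC1348.01 had 68.9 and 110 scaled CPM in starved Wilmar-P against 14.98 and 33.8 in glucose, and 26.1 and 48.0 in starved Wilmar-A against 7.60 and 9.95 in glucose. The groups did not overlap for either gene in either isolate.

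The transporter genes SPBC1348.05 and SPBPB2B2.16c, of the major facilitator family and largely identical, rose by 2.117 ± 0.65 and 2.43 ± 0.63 in Wilmar-P and by 1.74 ± 0.59 and 1.83 ± 0.57 in Wilmar-A (log2, SE). SPBC1348.07, of unknown function, had 5.05 and 19.2 scaled CPM in starved Wilmar-P against 0.830 and 0.572 in glucose, and 3.39 and 4.89 in starved Wilmar-A against 0.649 and 0.756 in glucose. On the log2 scale it rose by 4.34 ± 0.90 in Wilmar-P and by 2.55 ± 0.78 in Wilmar-A (SE), and the highest level was that of Wilmar-P glucose-starved replicate 2. SPBPB2B2.07c and SPBPB2B2.14c, which share sequence with it, rose by 4.34 ± 1.28 and 3.99 ± 0.91 in Wilmar-P and by 2.82 ± 1.05 and 3.38 ± 0.86 in Wilmar-A. The Vel1p domain genes SPBC1348.06c and SPBPB2B2.15 rose by 2.87 ± 0.74 in Wilmar-P and by 1.95 ± 0.64 and 1.91 ± 0.64 in Wilmar-A. Among the members called in Wilmar-A but not in Wilmar-P were ftm6 and ftm7, both transmembrane genes, and SPBPB2B2.18, of unknown function, with log2 fold changes of 2.36 ± 0.73, 2.31 ± 0.86 and 3.26 ± 0.81 (SE). In Wilmar-P these were 1.72 ± 0.81, 1.94 ± 0.92 and 0.66 ± 0.98. Whether the isolates differ in them was tested through the change of the isolate difference, in which no member passed. SPBCPT2R1.01c rose by 1.59 ± 0.49 in Wilmar-P and 2.25 ± 0.48 in Wilmar-A.

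Of the members without repeats, SPNCRNA.1302 passed the test in Wilmar-P and eno102 in Wilmar-A, on few reads. The 2 overlap on opposite strands. SPNCRNA.1302 had 7 and 5 counts in starved Wilmar-P against 1 and 0 in glucose, a ratio of 19.1 with a 95% counting interval of 2.82 to 814. eno102 had 3 and 49 counts in starved Wilmar-A against 3 and 0 in glucose, a ratio of 27.7 with a 95% counting interval of 8.97 to 139 (edgeR adjusted p = 0.0295, and 0.0627 with Wilmar-A glucose replicate 1 as unstranded). In Wilmar-P the same ratio was 43.7 with an interval of 11.5 to 369, and eno102 did not pass the test (edgeR adjusted p = 0.0781, and 0.0406 with that library as unstranded).

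Only the L-asparaginase gene SPBPB8B6.05c and fex2 fell in glucose-starved medium, and they did so in both isolates. SPBPB8B6.05c had 22.4 and 52.7 scaled CPM in starved Wilmar-P against 113.02 and 167 in glucose, and 24.0 and 21.3 in starved Wilmar-A against 102 and 114 in glucose. Its log2 fold changes were -2.02 ± 0.34 (edgeR adjusted p = 0.00117) and -2.26 ± 0.33 (adjusted p = 0.000439, SE). For fex2 they were -1.60 ± 0.20 and -1.16 ± 0.19 (edgeR adjusted p = 0.000244 and 0.000924, SE). The groups did not overlap for either gene in either isolate, and both genes share much of their sequence with copies on chromosome I.

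**Figure D5:**
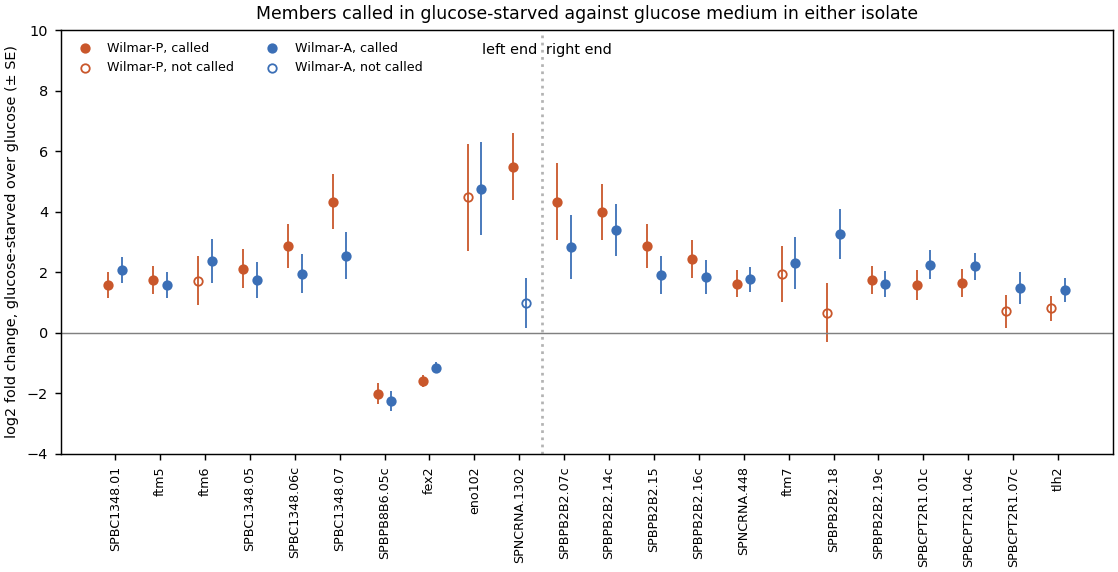
Log2 fold change of glucose-starved over glucose medium (y axis, ± SE) for the 22 members called in either isolate, in Wilmar-P and Wilmar-A (left and right symbol at each gene), with filled symbols for members that passed the test and a dotted line between the ends. All lie above 0 except SPBPB8B6.05c and fex2, and the bars of eno102 are the longest.

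In glucose-deficient medium 0 members passed the edgeR test against glucose in either isolate, although 1.92% of all genes rose and 0.21% fell in Wilmar-P and 5.57% rose and 5.85% fell in Wilmar-A. The counts at an unadjusted p below 0.05 were 1 in Wilmar-P and 4 in Wilmar-A, and DESeq2's test called 0 and 0. SPBPB8B6.05c had intermediate levels there, with 139.8 ± 37.9 scaled CPM in glucose, 90.5 ± 8.40 in glucose-deficient and 37.6 ± 21.5 in glucose-starved medium (SD, n = 2 each, Wilmar-P). In Wilmar-A the same media gave 108 ± 8.06, 77.7 ± 4.70 and 22.6 ± 1.903. The step between glucose-deficient medium and glucose measured -0.61 ± 0.31 in Wilmar-P and -0.33 ± 0.34 in Wilmar-A (log2, SE).

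Wilmar-P on molasses was set against Wilmar-P in glucose, and 1 member rose and 0 fell, against 0.721% and 0.48% of all genes. SPNCRNA.448, a non-coding RNA of the right end that covers the same repeat as the methyltransferase gene SPBC1348.04 at the left end, had 17.5 and 10.3 scaled CPM on molasses against 1.75 and 2.67 in glucose, a log2 fold change of 2.32 ± 0.46 (SE, edgeR adjusted p = 0.037). It rose in starved medium too, by 1.62 ± 0.45 in Wilmar-P and 1.76 ± 0.42 in Wilmar-A. When the Wilmar-A glucose replicate 1 library was handled as unstranded, the transporters SPBC1348.05 and SPBPB2B2.16c rose as well on molasses, by 2.68 and 2.79 on the log2 scale. Leaving out any 1 of the 4 libraries left 0 calls.

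The difference between the isolates was also tested for a change with the medium. From glucose to glucose-starved medium and from glucose to glucose-deficient medium, 0 of 46 members and 0% of all genes changed it in either direction (edgeR). Unadjusted p-values below 0.05 numbered 1 and 2 members, and DESeq2's test called 0 and 0. The higher levels of tlh2 and its neighbours in Wilmar-P are thus not shown to depend on the medium.

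Genes of chromatin silencing, including shelterin, the Clr4 complex, heterochromatin proteins, histone deacetylases, RNA interference and the antagonists epe1 and mst2, were measured beside the members. Of 27 listed genes 0 were called by edgeR between Wilmar-P and laboratory S. pombe or between the isolates within a medium, with a median log2 fold change of 0.05 on molasses and 0.03 averaged over the YES media. In glucose-starved against glucose medium 1 rose and 4 fell in Wilmar-P, and 1 rose and 6 fell in Wilmar-A, or 1 and 3 in Wilmar-P and 2 and 3 in Wilmar-A with the Wilmar-A glucose replicate 1 library handled as unstranded, an alternative chosen for this list after seeing the data. rap1 rose in both isolates, by 1.24 and 1.55 on the log2 scale, and chp1 and chp2 were among those that fell in both. The log2 fold change of swi6 was -1.003 in Wilmar-P, which made a call, and -0.92 in Wilmar-A, which missed the fold threshold (edgeR adjusted p = 0.00541 and 0.00550). The shelterin genes pot1, tpz1 and poz1 were called lower in Wilmar-A, with -3.53, -2.78 and -1.05, and not in Wilmar-P, with -0.95, -0.52 and -0.48. With that library handled as unstranded the Wilmar-A values were -0.87, -0.64 and -0.43 and none was called. The change of the isolate difference was called for 0 of the 27 genes under either handling. pot1 averaged 9.29 scaled CPM in starved Wilmar-P against 111.5 in glucose and 9.51 in starved Wilmar-A against 110.2 in glucose. These means are not adjusted for strandedness. Each glucose group holds 1 library that is unstranded by its label or its counts, and the starved libraries are all labelled stranded. The means alone therefore do not give the change with the medium. Their part in the levels of the members was not tested.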

How the data were processed

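RNA was measured in 16 libraries of 8 groups. The authors trimmed reads with Trim_Galore, aligned them with TopHat2 2.1.1 to ASM294v2 and counted them per gene with featureCounts 1.5.2, and deposited raw counts, which were used as deposited. A read that overlaps several genes was counted for each. How reads with several alignments were counted is not given in the sources used here.

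Genes were tested with edgeR 4.0.16 in R 4.3.3 (TMM scaling, filterByExpr, quasi-likelihood test, group and labelled strandedness as terms) over all 16 libraries. Of 7019 genes 6662 were tested, 46 of 61 members among them. P-values were adjusted by Benjamini-Hochberg over all genes tested. Standard errors are the log2 fold change divided by the square root of F. DESeq2 1.42.0 served as an alternative, beside other scaling, filters, terms and left-out libraries. Data were also simulated for Wilmar-P against laboratory S. pombe (6575 genes, 200 changed). Of changes of 1.5 and 3 on the log2 scale, 85 of 100 and 99 of 100 were recovered, and 5 unchanged genes were called. The simulated spread was that with Wilmar-A glucose replicate 1 as unstranded (common dispersion 0.0447, against 0.1005 in the main fit). No strandedness effect was simulated, and only genes above a minimum mean count were changed. Recovery at the spread of the main fit, or for members with few counts, was thus not tested.

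Levels are CPM scaled by TMM. Libraries held 13246648 to 18164249 counts. Counting intervals (95%) and the floor of 3 counts cover counting error only. Repeats and sequences were read from RefSeq ASM294v3, and gene positions in the text otherwise follow the count table. The genes named are the galactose cluster with its neighbours, every member called between strains or isolates, for each medium contrast and end the 5 highest and 5 lowest log2 fold changes among called members whose groups did not overlap, and the members with the highest mean level. Other members are named for their detection. The members and gene lists were chosen with earlier results of these data known. One gene of the silencing list is not reported by name here.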

Additional observations from a re-analysis of the deposited data

How the results depend on the processing

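Counts of members called were recomputed under each alternative. For Wilmar-P against laboratory S. pombe (13 calls), 4 were called with at least 10 counts required in every library, 8 without the strandedness term and 23 when the Wilmar-A glucose replicate 1 library was handled as unstranded, and leaving out 1 library gave 4 to 14. For Wilmar-P against Wilmar-A in glucose (0 calls) DESeq2's Wald test gave 6 and leaving out 1 library 0 to 6. In glucose-deficient medium (1 call) there were 0 without the repeated members, 0 without the strandedness term, 2 with that library as unstranded, 3 by DESeq2's Wald test and 0 with any library left out. In glucose-starved medium (0 calls) leaving out 1 library gave 0 to 1. Averaged over the YES media (6 calls) there were 0 without the repeated members, 3 without the strandedness term and 1 to 6 with 1 library left out. Starved against glucose medium, Wilmar-P (16 calls) had 1 without the repeated members, 10 with at least 10 counts in every library and 5 to 13 with 1 library left out, and Wilmar-A (21 calls) had 1, 12 and 6 to 16. For glucose-deficient medium in Wilmar-A (0 calls) leaving out 1 library gave 0 to 3. Wilmar-P on molasses against glucose (1 call) had 0 without the repeated members, 3 with that library as unstranded, 4 by DESeq2's Wald test and 0 with any library left out. The change of the isolate difference in glucose-deficient medium (0 calls) gave 0 to 2 with 1 library left out. Of the 18 laboratory-only members, a floor of 0 counts in place of 3 gave 6, and leaving out 1 library gave 18 to 21. The causes were not tested.

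With the replicate number as a block, Wilmar-P on molasses against glucose had 0 calls, Wilmar-P against laboratory S. pombe 12, starved Wilmar-P 18 and starved Wilmar-A 20. Same-numbered libraries deviated together between the isolates in glucose (r = 0.948) and glucose-deficient medium (r = 0.951) and not between the 2 molasses groups (r = -0.00681, each over 6662 genes). In the first 2 cases the libraries that differ in strandedness carry the same number, and no label says that a number marks a batch. No call on a named gene changed direction under these alternatives. Members with 3 or fewer counts in a library are limited by depth, and copies at several chromosome ends cannot be told apart.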
